A study of Homo sapiens with 24 samples.

Results

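EGR1, ARC, IER2, IER3, IER5 and SRF are immediate-early genes or, in the case of SRF, the transcription factor that switches many of them on. They were taken by symbol from the deposited table and all 6 were present among its 14114 genes. The set was proposed with earlier results in view, in which EGR1 and ARC were among the genes most raised by BETd-246 and IER5 among those lowered, so the BETd-246 values of the 6 genes are given as a description without a test. Immediate-early genes are transcribed within minutes of a stimulus without new protein synthesis. In the best known route, growth factor receptors act through RAS, RAF, MEK and ERK kinases, and ERK phosphorylates the ternary complex factors ELK1, ELK3 and ELK4, which sit with SRF on serum response elements whose core is the CArG box. BET proteins bind acetylated histones and help RNA polymerase II to elongate.

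RNA was measured in 3 triple-negative breast cancer cell lines, MDA-MB-231, MDA-MB-468 and MDA-MB-157. Treatment lasted 3 h, with BETd-246 at 100 nM, a degrader that joins a BET ligand to a thalidomide-type ligand of the ubiquitin ligase subunit cereblon, with BETi-211 at 1000 nM, a BET inhibitor, with thalidomide at 1000 nM, or with DMSO at 0.05% by volume. The study treated both thalidomide and DMSO cells as controls, which gives 4 control libraries per line. With 2 independent biological replicates per group there were 24 libraries in 12 groups, all from cells in serum-containing medium, and each line stands for itself only.

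Values are FPKM, fragments scaled to transcript length and to the mapped fragments of the library, so levels can be set side by side between genes. The steps between the lowest values put the depth at an estimated 42800000 to 64000000 fragments per library, and replicates correlated at r = 0.992 to 0.998 over all genes. ESR1 and PGR were not among the listed genes, ERBB2 lay between 7.17 and 19.5 FPKM, and the luminal keratins KRT8 and KRT18 were at 148 FPKM or more in every library. Other epithelial markers were high in MDA-MB-468 only, with EPCAM at 145 to 176, CDH1 at 36.4 to 48.4 and EGFR at 582 to 765 FPKM. In MDA-MB-157 they were at 1.58 to 1.89, 0.387 to 0.533 and 10.3 to 10.7 FPKM. In MDA-MB-231 they were at 3.12 to 3.90, 0.131 to 0.198 and 40.8 to 58.4 FPKM. The basal keratins did not go with the label basal in each line: KRT5 was at 699 to 876 FPKM in MDA-MB-468, at 0.438 to 0.667 FPKM in MDA-MB-157 and at 0 to 0.00752 FPKM in MDA-MB-231, with KRT14 and KRT17 likewise below 1 FPKM in MDA-MB-157 and MDA-MB-231. Of 8 immune and endothelial markers 2 were listed, of which CD14 reached 68.1 FPKM in MDA-MB-157. Differences are in log2(FPKM + 1) with their standard error, from limma fitted over all 14114 genes, and a gene passed where its Benjamini-Hochberg adjusted p was below 0.05. In RNA from whole cultures, fewer cells of a kind and less RNA per cell cannot be told apart.

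Positions are on GRCh38, with that of ARC given beside its values. EGR1 lies on the plus strand of chromosome 5 (138465490 to 138469315, 2 exons), IER2 on the plus strand of chromosome 19 (13150415 to 13154908), IER3 on the minus strand of chromosome 6 (30743199 to 30744554), IER5 on the plus strand of chromosome 1 (181088712 to 181092899, 1 exon) and SRF on the plus strand of chromosome 6 (43171299 to 43181507, 7 exons). The genes are short: the 5 immediate-early genes span 1356 to 4494 bases, against a median of 28278 bases over the 13951 genes of the table that could be annotated.

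The sequences before the transcript start of EGR1 and SRF are shown because they hold the SRF-binding CArG box, and that of IER5 because it holds none. They are from RefSeq (GRCh38.p14), 250 bases each, plus strand, 5′ to 3′, with CArG boxes in capitals, at chr5:138465229-138465478 for EGR1, chr6:43171019-43171268 for SRF and chr1:181088450-181088699 for IER5.
EGR1: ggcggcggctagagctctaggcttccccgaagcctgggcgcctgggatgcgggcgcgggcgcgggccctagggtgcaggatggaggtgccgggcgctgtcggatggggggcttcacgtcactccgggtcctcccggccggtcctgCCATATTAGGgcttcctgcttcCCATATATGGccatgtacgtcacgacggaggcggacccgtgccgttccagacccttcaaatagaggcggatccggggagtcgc
SRF: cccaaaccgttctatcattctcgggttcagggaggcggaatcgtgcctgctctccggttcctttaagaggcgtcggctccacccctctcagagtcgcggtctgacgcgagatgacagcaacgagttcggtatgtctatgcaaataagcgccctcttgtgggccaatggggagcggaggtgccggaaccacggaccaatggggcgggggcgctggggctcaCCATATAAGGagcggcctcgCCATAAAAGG
IER5: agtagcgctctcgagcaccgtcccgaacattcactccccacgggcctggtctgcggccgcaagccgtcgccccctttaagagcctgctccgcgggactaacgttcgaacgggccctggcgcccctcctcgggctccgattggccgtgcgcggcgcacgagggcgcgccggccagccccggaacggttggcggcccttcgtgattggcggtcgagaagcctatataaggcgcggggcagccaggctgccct
The CArG box was searched on both strands, in windows from 250 bases before to 50 bases after the RefSeq start. For the genes searched, that start lies upstream of the gene start given above, which is from GENCODE. EGR1 had 2, at -105 to -96 and -83 to -74 from the start, and SRF had 2, at -30 to -21 and -10 to -1. IER2 and IER5 had 0. Of all 35116 windows of this length 1.293% held at least 1. Other short motifs were more common: GGGCGG, in 44.95% of windows, occurred 4 times at IER2, and CGTCA, in 24.55%, occurred 2 times at EGR1 with no overlap with the CArG boxes. CCGGAA, in 17.25% of windows, occurred 1 time each at IER2, IER5 and SRF, and TATAAA, in 11.53%, occurred 1 time at SRF, after the start on the minus strand. These short motifs were counted as exact strings only, so a count of 0 does not exclude a variant form. The windows of ARC and IER3 were not searched.

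**Figure D1:**
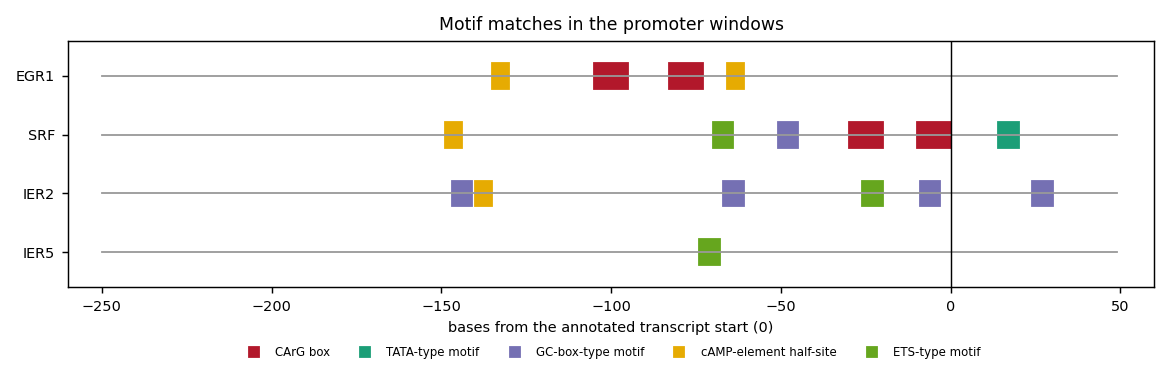
Matches of 5 motifs in the promoter windows of EGR1, SRF, IER2 and IER5, by distance in bases from the annotated RefSeq transcript start. Boxes mark the matched bases on either strand. CArG boxes appear 2 times at EGR1 and 2 times at SRF and at neither IER2 nor IER5.

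EGR1 encodes a zinc finger transcription factor and is among the best studied targets of SRF and the ternary complex factors. Its level was highest under BETd-246 and next highest under BETi-211 in each line. In MDA-MB-157 it stood at 47.3 and 44.4 FPKM with BETd-246, 13.8 and 16.1 with BETi-211, 4.98 and 4.76 with thalidomide, and 3.74 and 3.10 with DMSO. In MDA-MB-231 the values were 80.1 and 84.1 FPKM with BETd-246, 11.8 and 11.9 with BETi-211, 3.26 and 2.74 with thalidomide, and 3.03 and 2.45 with DMSO. MDA-MB-468 gave 24.2 and 34.3 FPKM with BETd-246, 17.8 and 20.4 with BETi-211, 6.01 and 9.18 with thalidomide, and 5.40 and 7.21 with DMSO. No library of either compound overlapped the controls of its line. The order of the lines turned round: under BETd-246 MDA-MB-231 was highest, whereas among the controls it was lowest. The BETi-211 response was an increase of 1.65 ± 0.15 in MDA-MB-157 (adjusted p = 1.41e-07), 1.73 ± 0.15 in MDA-MB-231 (6.21e-08), while it was 1.36 ± 0.15 in MDA-MB-468 (8.91e-07, limma). Under BETd-246 the difference was 3.20, 4.43 and 1.93 in the same lines, each with a standard error of 0.15, which placed EGR1 3rd, 1st and 20th from the top of all 14114 genes. In linear terms the BETd-246 mean was 11.1, 28.6 and 4.21 times the control mean and the BETi-211 mean 3.61, 4.12 and 2.75 times.

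**Figure D2:**
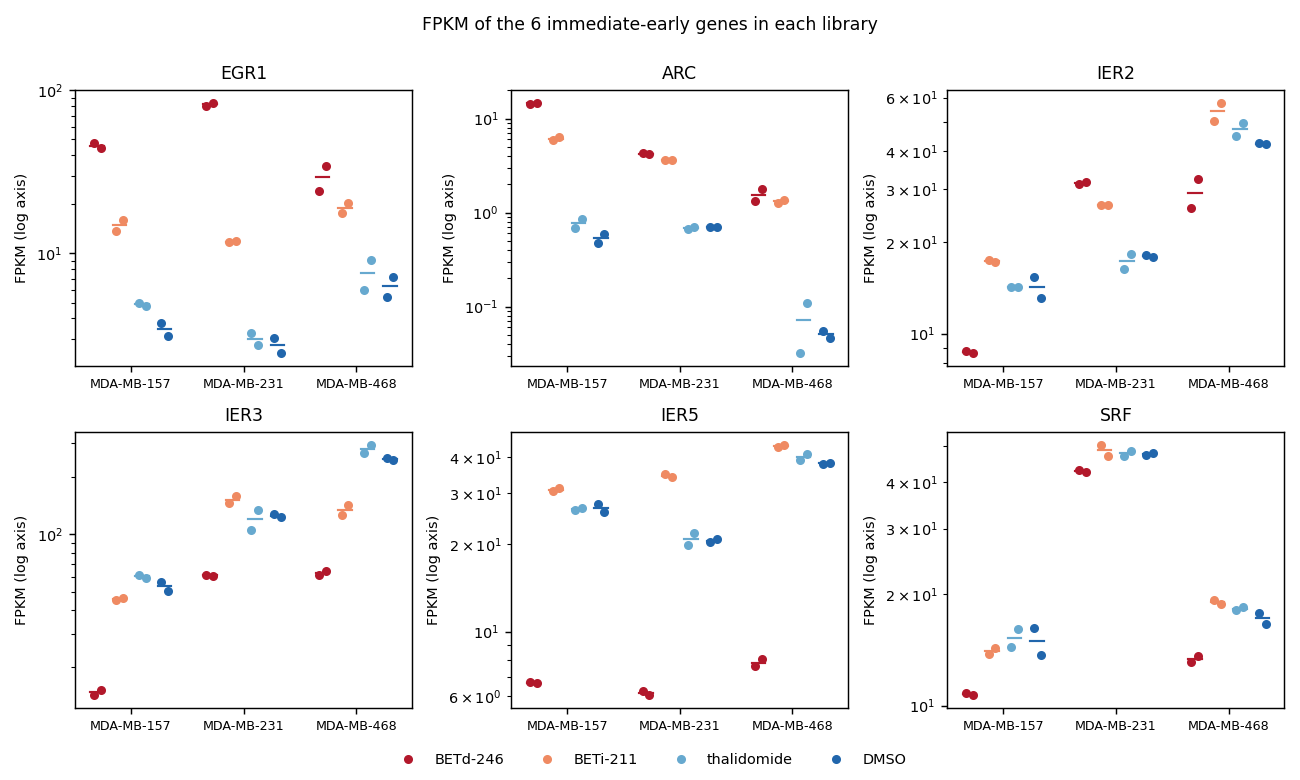
FPKM (log axis) of the 6 genes in each of the 24 libraries, grouped by line and, within a line, from left to right BETd-246, BETi-211, thalidomide and DMSO; points are libraries and bars the group means (n = 2). EGR1 and ARC are above their controls with both compounds, whereas IER5 is lowest under BETd-246 in each line.

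ARC, the activity-regulated cytoskeleton-associated protein, is best known from neurons, where its RNA is induced by synaptic activity. It lies on the minus strand of chromosome 8 (GRCh38, 142611044 to 142614472). These cells carried little of it without a compound, and it was higher with both. In MDA-MB-157 it stood at 14.4 and 14.8 FPKM with BETd-246, 5.89 and 6.30 with BETi-211, 0.692 and 0.858 with thalidomide, and 0.470 and 0.597 with DMSO. MDA-MB-231 had 4.30 and 4.18 FPKM with BETd-246, 3.61 and 3.64 with BETi-211, 0.671 and 0.703 with thalidomide, and 0.710 and 0.704 with DMSO. MDA-MB-468 had 1.33 and 1.78 FPKM with BETd-246, 1.26 and 1.37 with BETi-211, 0.0320 and 0.110 with thalidomide, and 0.0545 and 0.0469 with DMSO. Treated and control libraries did not overlap in any line, and in MDA-MB-468 the levels under the 2 compounds did overlap. The MDA-MB-468 control values rest on an estimated 5.91 to 19.7 fragments per library, against 194 to 224 in the treated libraries of that line. With BETi-211 the increase of ARC was 2.11 ± 0.06 in MDA-MB-157 (adjusted p = 5.72e-13), 1.45 ± 0.06 in MDA-MB-231 (2.12e-11), while it was 1.13 ± 0.06 in MDA-MB-468 (2.69e-10, limma). The BETd-246 differences were 3.24, 1.63 and 1.26, each ± 0.06. Since 1 FPKM is added before the logarithm, these understate the change where controls are low. As ratios of means, BETi-211 levels were 9.32, 5.20 and 21.6 times those of controls, and BETd-246 levels 22.3, 6.08 and 25.4 times. With 0.1 FPKM added instead, the BETi-211 increases became 3.06, 2.23 and 3.16, so which line responded most depends on that constant.

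IER2 encodes a small nuclear protein of the immediate early response family whose RNA is induced by growth factors. In MDA-MB-157 its levels were 8.75 and 8.63 FPKM with BETd-246, 17.5 and 17.2 with BETi-211, 14.3 and 14.3 with thalidomide, and 15.4 and 13.1 with DMSO. MDA-MB-231 had 31.03 and 31.7 FPKM with BETd-246, 26.6 and 26.5 with BETi-211, 16.3 and 18.3 with thalidomide, and 18.2 and 17.9 with DMSO. MDA-MB-468 had 26.0 and 32.3 FPKM with BETd-246, 50.3 and 57.7 with BETi-211, 44.7 and 49.6 with thalidomide, and 42.5 and 42.2 with DMSO. BETi-211 libraries lay above all controls of their line, whereas BETd-246 libraries lay below them in MDA-MB-468 and MDA-MB-157 and above them in MDA-MB-231. The BETi-211 increase was 0.27 ± 0.08 in MDA-MB-157 (adjusted p = 0.00907), 0.56 ± 0.08 in MDA-MB-231 (1.35e-05), while it was 0.27 ± 0.08 in MDA-MB-468 (0.00832, limma). It lost its call in MDA-MB-157 without BETi-211 replicate 1 (0.26, adjusted p = 0.0644). In MDA-MB-468 the same happened without BETi-211 replicate 2 (0.17, adjusted p = 0.174), with libraries scaled to their column totals (0.18, 0.055), with thalidomide alone as control (0.19, 0.0937) and with the line fitted alone (0.27, 0.0619, limma). BETd-246 differences were -0.65, 0.79 and -0.61, each ± 0.08. An antisense gene, AC011446.2, overlaps 1123 bases of IER2, and reads of the 2 strands cannot be separated, since the library kit does not mark strand.

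IER3, also known as IEX-1, is a stress-inducible protein that acts on ERK signalling and cell survival. It was the most abundant of the 6 genes in the controls of each line. In MDA-MB-157 it stood at 14.3 and 15.2 FPKM with BETd-246, 45.2 and 46.4 with BETi-211, 61.4 and 59.0 with thalidomide, and 56.0 and 50.5 with DMSO. In MDA-MB-231 it stood at 61.3 and 60.4 FPKM with BETd-246, 146 and 158 with BETi-211, 106 and 134 with thalidomide, and 127 and 123 with DMSO. In MDA-MB-468 it stood at 61.2 and 63.9 FPKM with BETd-246, 126 and 142 with BETi-211, 268 and 296 with thalidomide, and 252 and 245 with DMSO. BETd-246 libraries were thus the lowest in each line, while BETi-211 libraries were below the controls in MDA-MB-468 and MDA-MB-157 and above them in MDA-MB-231. With BETi-211 IER3 fell by 0.30 ± 0.08 in MDA-MB-157 (adjusted p = 0.00447, 0.0666 with DMSO alone as control) and by 0.98 ± 0.08 in MDA-MB-468 (1.83e-08), and rose by 0.32 ± 0.08 in MDA-MB-231 (0.00269, limma). The rise in MDA-MB-231 was 0.26 without BETi-211 replicate 2, with an adjusted p of 0.0525 by limma. The BETd-246 differences were -1.87, -0.99 and -2.06, each ± 0.08. The antisense gene IER3-AS1 overlaps 394 bases of IER3, and its own level was 0.594 to 0.599 FPKM with BETd-246, 1.98 to 2.70 with BETi-211 and 2.05 to 5.84 in controls of MDA-MB-468, and below 1 FPKM in the other lines. Its part in the IER3 values was not tested.

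IER5 binds protein phosphatase 2A and promotes the activity of heat shock factor HSF1. It differed in direction between the compounds in each line. MDA-MB-157 had 6.71 and 6.64 FPKM with BETd-246, 30.5 and 31.3 with BETi-211, 26.3 and 26.8 with thalidomide, and 27.5 and 25.9 with DMSO. MDA-MB-231 had 6.24 and 6.05 FPKM with BETd-246, 35.002 and 34.1 with BETi-211, 19.9 and 21.99 with thalidomide, and 20.4 and 20.9 with DMSO. MDA-MB-468 had 7.62 and 8.03 FPKM with BETd-246, 43.2 and 44.2 with BETi-211, 39.1 and 41.0 with thalidomide, and 38.0 and 38.2 with DMSO. Every BETd-246 library was below, and every BETi-211 library above, the 4 controls of its line. The BETi-211 increase of IER5 was 0.21 ± 0.04 in MDA-MB-157 (adjusted p = 0.000304), 0.71 ± 0.04 in MDA-MB-231 (3.21e-10), while it was 0.16 ± 0.04 in MDA-MB-468 (0.00247, limma). The increase in MDA-MB-468 did not pass with column-total scaling (0.08, adjusted p = 0.1, limma). BETd-246 differences were -1.85, -1.61 and -2.18, each ± 0.04, and the control mean was 3.98, 3.38 and 5.00 times the BETd-246 mean. The BETi-211 comparison shares its 4 control libraries per line with the BETd-246 one that informed the choice of genes. The doses of the 2 compounds differ, so their values stand side by side without a test between them.

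SRF itself, the MADS-box factor that binds the CArG box, had the smallest differences from controls of the 6 with either compound. In MDA-MB-157 it stood at 10.8 and 10.7 FPKM with BETd-246, 13.8 and 14.3 with BETi-211, 14.3 and 16.1 with thalidomide, and 16.2 and 13.7 with DMSO. In MDA-MB-231 it stood at 43.1 and 42.5 FPKM with BETd-246, 50.6 and 47.2 with BETi-211, 47.2 and 48.6 with thalidomide, and 47.3 and 48.1 with DMSO. In MDA-MB-468 it stood at 13.1 and 13.6 FPKM with BETd-246, 19.2 and 18.8 with BETi-211, 18.1 and 18.4 with thalidomide, and 17.8 and 16.6 with DMSO. BETd-246 libraries were below all controls in each line, and BETi-211 libraries overlapped them except in MDA-MB-468. With BETi-211 the difference was -0.10 ± 0.05 in MDA-MB-157 (adjusted p = 0.177), 0.03 ± 0.05 in MDA-MB-231 (0.687), while it was 0.10 ± 0.05 in MDA-MB-468 (0.157, limma), none of which passed. The value in MDA-MB-468 passed as 0.20 with quantile normalization (adjusted p = 0.0068), 0.18 with upper-quartile scaling (0.0074) and 0.17 with median-of-ratios scaling (0.00826, limma). That in MDA-MB-157 passed as -0.15 with column totals (adjusted p = 0.0326) and without DMSO replicate 2 (0.014, limma). The BETd-246 differences were -0.45, -0.16 and -0.38, each ± 0.05. That in MDA-MB-231 turned to 0.04 with median-of-ratios scaling.

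**Figure D3:**
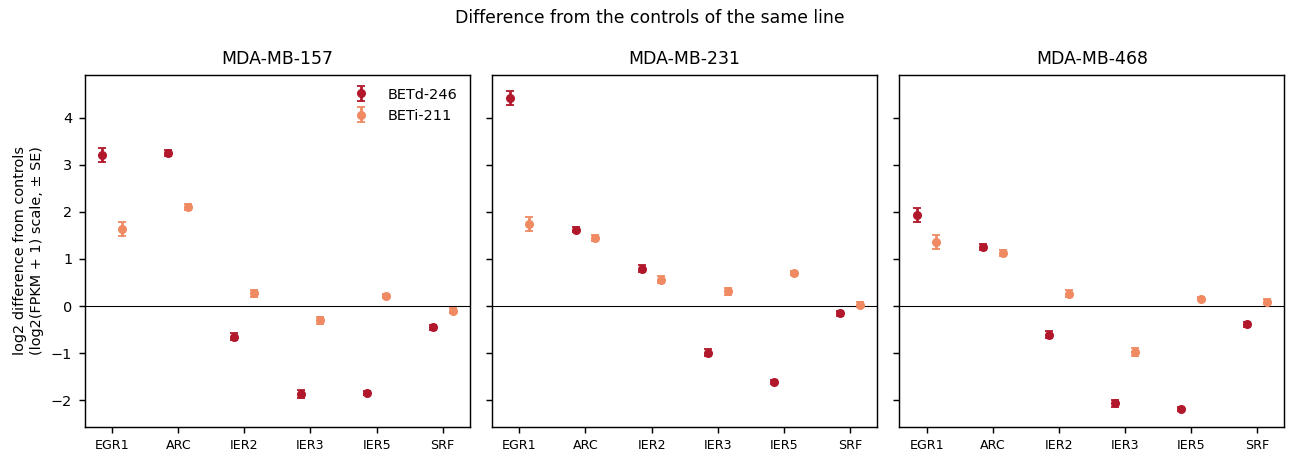
Difference from the controls of the same line in log2(FPKM + 1), with its standard error, for the 6 genes under BETd-246 (left point of each pair, 100 nM) and BETi-211 (right point, 1000 nM). EGR1 and ARC are above 0 with both compounds in each line, and IER5 is below 0 with BETd-246 and above 0 with BETi-211.

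Counted over the set, 5 of 6 genes passed for BETi-211 in MDA-MB-157 (4 higher, 1 lower), against 45.8% of all genes (14.9% higher and 30.9% lower). In MDA-MB-231 5 of 6 passed, all higher, against 50.1% (18.7% higher and 31.4% lower), and in MDA-MB-468 5 of 6 passed (4 higher, 1 lower), against 53.9% (21.3% higher and 32.5% lower). Against so high a background the counts are read beside the sizes. EGR1 ranked 19th, 29th and 92nd from the top and ARC 5th, 65th and 152nd of 14114. For BETd-246, where the set was chosen on the values and the counts are a description, 4, 3 and 4 of the 6 differed at least 2-fold in the 3 lines, against 4.47%, 4.97% and 6.44% of all genes.

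Thalidomide set against DMSO gave 0 of 6 passing in each line by limma, against 0.184% of all genes in MDA-MB-157 and 0% in each of the other lines. At an unadjusted p below 0.05 there were 2, 0 and 0. Those 2 were EGR1 and ARC in MDA-MB-157, both higher with thalidomide, by 0.41 ± 0.17 (adjusted p = 0.283) and 0.21 ± 0.07 (0.197, limma). The thalidomide and DMSO values of both genes did not overlap in that line. The same held there for IER3, and in MDA-MB-468 for IER2, IER3, IER5 and SRF, all higher with thalidomide. In MDA-MB-231 it held for ARC, which was lower with thalidomide. With 2 libraries on each side such a gap carries little weight, and its share over all genes was not counted. In MDA-MB-231 leaving out thalidomide replicate 2 made IER3 pass, 0.24 lower with thalidomide (adjusted p = 0.0358, limma), and raised the number of passing genes over the whole table to 3200, against 0 with all libraries.

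Some responses to BETi-211 differed between the lines. The difference of the BETi-211 response was tested directly, for MDA-MB-157 minus MDA-MB-231 (3 of 6 genes passed, against 16.5% of all genes), MDA-MB-157 minus MDA-MB-468 (2 of 6, 21.6%) and MDA-MB-468 minus MDA-MB-231 (3 of 6, 21.9%). ARC responded more in MDA-MB-157 than in MDA-MB-231 (0.66 ± 0.09, adjusted p = 6.67e-05) and than in MDA-MB-468 (0.98 ± 0.09, 7.08e-07), and less in MDA-MB-468 than in MDA-MB-231 (-0.32 ± 0.09, 0.0159, limma). With 0.1 FPKM added the last turned to 0.93 (adjusted p = 0.00525) and the second to -0.10 (0.821, limma), while the first stayed at 0.84. The ARC difference between MDA-MB-468 and MDA-MB-231 also missed the threshold with DMSO alone as control (-0.30, adjusted p = 0.0541, limma). For IER3 the response in MDA-MB-157 was 0.61 ± 0.11 below that in MDA-MB-231 (adjusted p = 0.000831) and 0.68 ± 0.11 above that in MDA-MB-468 (0.000249), and that in MDA-MB-468 was 1.29 ± 0.11 below that in MDA-MB-231 (2.37e-07, limma). IER5 responded less in MDA-MB-157 (-0.50 ± 0.05, adjusted p = 7.88e-06) and in MDA-MB-468 (-0.55 ± 0.05, 1.73e-06) than in MDA-MB-231 (limma). For EGR1 the 3 differences were -0.09, 0.29 and -0.37, each ± 0.21, with adjusted p of 0.839, 0.393 and 0.244 (limma), of which the third passed under a replicate block (0.0476). For SRF none passed with all libraries in the fit. Its largest difference, -0.19 ± 0.08 for MDA-MB-157 minus MDA-MB-468 (adjusted p = 0.0978, limma), grew when certain single control libraries of MDA-MB-157 were left out. It was -0.25 without DMSO replicate 2 and -0.23 without thalidomide replicate 1. IER2 did not pass, with -0.29 ± 0.11 for MDA-MB-157 minus MDA-MB-231 (adjusted p = 0.0838) and -0.30 ± 0.11 for MDA-MB-468 minus MDA-MB-231 (0.0657, limma). Both IER2 differences passed under a replicate block (0.0343 and 0.0263, limma). The first also passed with its lines fitted alone (-0.29, adjusted p = 0.0317, limma). The second also passed with quantile normalization (-0.39, adjusted p = 0.0123) and with thalidomide alone as control (-0.40, 0.0388, limma).

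Without a BET compound the lines differed in nearly all 6 genes, as they did across the table. Between the controls of MDA-MB-157 and MDA-MB-231 5 of 6 passed, against 87.4% of all genes, between MDA-MB-157 and MDA-MB-468 6 of 6, against 88%, and between MDA-MB-468 and MDA-MB-231 6 of 6, against 86.2%. IER3 averaged 56.7 ± 4.70 FPKM in MDA-MB-157, 265 ± 22.9 in MDA-MB-468 and 122 ± 12.3 in MDA-MB-231 (SD, n = 4 each). SRF averaged 15.1 ± 1.25, 17.7 ± 0.815 and 47.8 ± 0.693 FPKM in the same lines, and IER2 14.2 ± 0.939, 44.7 ± 3.44 and 17.7 ± 0.936. SRF was thus highest in MDA-MB-231 and IER2 and IER3 in MDA-MB-468. EGR1 control means were 4.14 ± 0.880 FPKM in MDA-MB-157, 6.95 ± 1.67 in MDA-MB-468 and 2.87 ± 0.352 in MDA-MB-231. The EGR1 difference between MDA-MB-157 and MDA-MB-231 (0.40 ± 0.12, adjusted p = 0.00595) did not pass with DMSO alone as control (0.202, limma) or with quantile normalization (0.709). ARC differed by -0.04 ± 0.05 between these lines (adjusted p = 0.448, limma), with a sign that turned to 0.07 with thalidomide alone as control. With quantile normalization the ARC difference was -0.58 and passed (adjusted p = 1.58e-08, limma).

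Over the 24 libraries, with each value centred on the 4 controls of its line, EGR1 and ARC varied together (Pearson r = 0.831), as did IER3 and IER5 (0.89) and IER5 and SRF (0.867), while EGR1 and IER5 ran opposite (-0.653). These correlations share libraries and treatments, describe the pattern and carry no test. The 24 include the BETd-246 libraries, whose values informed the choice of genes, so the signs follow in part from that choice. With BETi-211 EGR1 and IER5 both rose in each line. Among 11482 genes with a highest group mean of at least 5 FPKM, the most alike in pattern were FOS (0.932) and PARVA (0.919) for EGR1, FOS (0.899) and ZDHHC9 (0.874) for ARC, and HIST1H1A (0.883) and HIST1H2BI (0.870) for IER2. They were JDP2 (0.978) and CEBPB (0.978) for IER3, ZNF627 (0.991) and KIAA1551 (0.990) for IER5, and SLC3A2 (0.949) and TUT1 (0.942) for SRF. Over the 12 group means the closest genes changed for EGR1, to ARPC5 (0.953) and ATP6V0E1 (0.952), for ARC, to ZDHHC9 (0.950) and CALB2 (0.934), and for SRF, to FAM46A (0.980) and IP6K2 (0.974), and remained JDP2 for IER3.

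A wider list of 48 other immediate-early genes, of which 43 were measured, gives the setting for the 6. This list and those that follow were also chosen with earlier results of these data known. Their counts and adjusted p are therefore a description and not an independent test. EGR2, EGR3, EGR4, NR4A2 and SIK1 were not listed. With BETd-246 5 rose and 33 fell in MDA-MB-157, 10 rose and 29 fell in MDA-MB-231, and 10 rose and 30 fell in MDA-MB-468, against 51.5%, 48.1% and 53.9% of all genes passing. Of all genes 19%, 14.8% and 20.1% passed as higher and 32.4%, 33.3% and 33.7% as lower. The medians were -0.95, -0.75 and -0.75, against -0.03, -0.05 and -0.03 over all genes. With BETi-211 24 rose and 16 fell, 23 rose and 13 fell, and 25 rose and 14 fell, against 45.8%, 50.1% and 53.9% of all genes passing. Among all genes 14.9%, 18.7% and 21.3% passed as higher with BETi-211 and 30.9%, 31.4% and 32.5% as lower. The BETi-211 medians were 0.31, 0.25 and 0.46, against -0.03, -0.03 and -0.01 over all genes. Both comparisons use the same control libraries. The sign of each median held under each of 4 other scalings, which moved the share of higher calls among all calls from 32.6%, 37.4% and 39.6% for BETi-211 to 54.4%, 52.9% and 55.4% (upper quartile), 50.5%, 53.6% and 54.4% (median of ratios) or 23.1%, 25.1% and 26.3% (column totals). For BETd-246 the same share was 37.0%, 30.7% and 37.4%, and became 64.7%, 65.0% and 64.1% with median-of-ratios scaling and 15.8%, 9.88% and 17.9% with column totals.

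**Figure D4:**
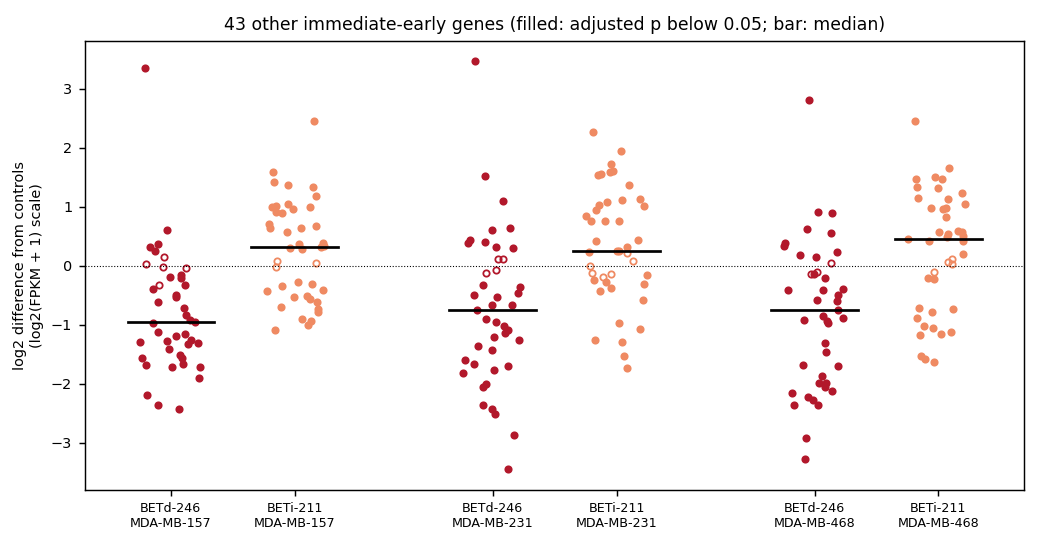
Difference from the controls of the same line in log2(FPKM + 1) for 43 other immediate-early genes, with BETd-246 left of BETi-211 in each line; points are genes, filled where the adjusted p was below 0.05, and bars are medians. The medians are -0.95, -0.75 and -0.75 with BETd-246 and 0.31, 0.25 and 0.46 with BETi-211.

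FOS, the partner of JUN in the AP-1 transcription factor, was over the 24 libraries, though not over the group means, the gene most like EGR1 and ARC. It stood 3.35 ± 0.18, 3.47 ± 0.18 and 2.81 ± 0.18 above controls with BETd-246 and rose by 2.46 ± 0.18, 1.94 ± 0.18 and 2.46 ± 0.18 with BETi-211. FOSB rose by 0.25, 0.32 and 0.18 with BETd-246 and by 0.29, 0.75 and 0.51 with BETi-211. Its controls averaged 0.203, 0.781 and 0.989 FPKM, so the added 1 FPKM understates these changes. JUN with BETi-211 rose by 0.65 in MDA-MB-157 and 0.98 in MDA-MB-468 and had -0.12 in MDA-MB-231 (adjusted p = 0.122, limma). JUN with BETd-246 fell by 1.02 in MDA-MB-231, rose by 0.62 in MDA-MB-468 and had 0.03 in MDA-MB-157 (adjusted p = 0.726, limma), a sign that turned with column totals. DUSP1, a phosphatase that inactivates MAP kinases, fell by 0.95, 0.46 and 0.20 with BETd-246 and rose by 1.42, 1.72 and 0.98 with BETi-211, although the BETd-246 value in MDA-MB-468 became 0.07 with quantile normalization (adjusted p = 0.202, limma). JUND had -0.18, 0.12 and -0.14 with BETd-246 and rose by 1.05, 1.59 and 1.33 with BETi-211, and GADD45B, a stress-induced gene, had -0.02, -0.08 and 0.39 with BETd-246 and rose by 1.33, 1.13 and 1.51 with BETi-211, where the negative BETd-246 values of both genes changed sign under some scalings or controls. The small GTPase RHOB had -0.21, -0.54 and 0.23 with BETd-246, all passing, and rose by 0.57, 1.11 and 1.67 with BETi-211. FOSL2, another AP-1 member, fell with both, by 1.18, 1.59 and 1.68 with BETd-246 and by 0.74, 1.30 and 1.02 with BETi-211. DUSP1, JUND, GADD45B, RHOB and FOSL2 were named for the smallest adjusted p of the list for the mean BETi-211 response. Clear BETi-211 differences in them are built in by that choice. The same holds below for CREB1, NRAS, ELK3 and ELK4 and for the named cytoskeletal genes. NAB1 and NAB2, which bind EGR proteins and repress their activity, were mostly lower. NAB2 fell by 1.56, 1.36 and 2.15 with BETd-246, and with BETi-211 it fell by 1.01 in MDA-MB-157 and 0.88 in MDA-MB-468 and rose by 0.32 in MDA-MB-231. NAB1 fell by 0.16, 0.32 and 0.40 with BETd-246 and by 0.41, 0.42 and 0.72 with BETi-211.

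The 22 genes from RAS to SRF had medians near those of the whole table. With BETd-246 5 rose and 6 fell in MDA-MB-157, 2 rose and 4 fell in MDA-MB-231 and 6 rose and 5 fell in MDA-MB-468, against 51.5%, 48.1% and 53.9% of all genes passing. With BETi-211 4 rose and 9 fell, 6 rose and 9 fell, and 4 rose and 10 fell, against 45.8%, 50.1% and 53.9%. The medians lay between -0.06 and 0.03, near those of all genes, and their sign changed with the scaling. Of the ternary complex factors ELK4 fell by 0.38, 0.20 and 0.21 with BETd-246 and by 0.40, 0.41 and 0.57 with BETi-211, although with BETd-246 it passed in 1 of 3 lines under each of quantile, upper-quartile and median-of-ratios scaling. ELK3 had -0.02, -0.11 and -0.06 with BETd-246, none passing (0.22 in MDA-MB-157 with quantile normalization, adjusted p = 0.0227, limma), and fell by 0.42, 0.69 and 0.42 with BETi-211, while ELK1 had 0.04, 0.04 and 0.0063 with BETd-246 and 0.02, 0.05 and 0.10 with BETi-211, passing in 0 of 3 lines with either. With BETd-246 ELK1 passed in 1 line under quantile, 2 under upper-quartile and 3 under median-of-ratios scaling, and with BETi-211 in 2, 3 and 2 lines, while its sign turned with column totals. NRAS, a small GTPase at the head of the ERK route, had -0.16, 0.05 and 0.04 with BETd-246, of which the first passed and the signs of the others changed with scaling, and fell by 0.46, 0.31 and 0.24 with BETi-211. CREB1, a factor of the cAMP and ERK routes, fell by 0.36, 0.47 and 0.48 with BETd-246 and with BETi-211 by 0.10 in MDA-MB-157 (adjusted p = 0.0322) and 0.74 in MDA-MB-468, with -0.08 in MDA-MB-231 (0.0557, limma). Both smaller BETi-211 values turned positive with quantile normalization. MKL1, an actin-regulated coactivator of SRF, fell by 0.35, 0.52 and 0.74 with BETd-246, and with BETi-211 fell by 0.26 in MDA-MB-157 and 0.37 in MDA-MB-468 and rose by 0.16 in MDA-MB-231. Its relative MKL2 had -0.22, -0.36 and -0.20 with BETd-246, of which the second passed and the others turned positive with quantile normalization, and fell by 0.29, 0.51 and 0.53 with BETi-211.

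SRF also drives cytoskeletal genes through MKL1 and MKL2, and 23 of 24 such genes were measured, CNN1 not being listed. With BETd-246 20 rose and 1 fell in MDA-MB-157, 15 rose and 2 fell in MDA-MB-231, and 15 rose and 1 fell in MDA-MB-468, against 51.5%, 48.1% and 53.9% of all genes passing, with medians of 0.21, 0.15 and 0.21. Quantile normalization reduced these to 8 and 1, 8 and 1, and 9 and 2. The medians became 0.13, 0.04 and 0.08, against 0.07, 0.06 and 0.07 over all genes. Upper-quartile scaling gave 22 and 1, 16 and 2, and 18 and 1. Its medians were 0.30, 0.23 and 0.28, against 0.03, 0 and 0.01. Median-of-ratios scaling gave 22 and 1, 19 and 2, and 20 and 1. There the medians were 0.37, 0.35 and 0.39, against 0.09, 0.08 and 0.09. Column totals gave 8 and 1, 6 and 3, and 12 and 2. Those medians were 0.12, 0.05 and 0.11, against -0.10, -0.12 and -0.10. With BETi-211 4 rose and 3 fell, 5 rose and 4 fell, and 8 rose and 3 fell, against 45.8%, 50.1% and 53.9% of all genes, with medians of 0.0047, -0.0083 and 0.06. The actin gene ACTG1 rose by 0.15, 0.17 and 0.32 with BETd-246 and by 0.25, 0.41 and 0.28 with BETi-211, and the actin-severing CFL1 by 0.23, 0.27 and 0.33 with BETd-246 and by 0.21, 0.20 and 0.35 with BETi-211. The filamin gene FLNA had 0.29, 0.11 and 0.29 with BETd-246, the second not passing and turning to -0.05 with quantile normalization, and rose by 0.23, 0.18 and 0.28 with BETi-211. Under quantile normalization ACTG1 passed in 0 of 3 lines and CFL1 in 1 of 3 with either compound, and FLNA in 0 of 3 with either. FHL2, a LIM domain cofactor, fell by 0.42, 0.73 and 0.42 with BETd-246 and by 0.73, 0.93 and 1.07 with BETi-211, and TGFB1I1 fell by 0.29 in MDA-MB-157 and 0.68 in MDA-MB-231 with BETi-211 and had 0.06 in MDA-MB-468. With BETd-246 TGFB1I1 had 0.20, -0.08 and 0.06, of which the first passed and the second turned to 0.10 with quantile normalization. In MDA-MB-468 TGFB1I1 averaged 0.0902 FPKM with BETd-246, 0.0912 with BETi-211 and 0.0487 in controls. The added 1 FPKM therefore understates its differences in that line.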

How the data were processed

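RNA-seq was measured in 24 libraries of 3 cell lines and 4 treatments, grouped by the labels. Libraries were random-primed from rRNA-depleted RNA with a kit that does not mark strand, per the labels' protocols. The submitters' processing notes name Bowtie 0.12.8, bcl2fastq 2.17.1.14 and the build GRCh38.p5. For the counting tool, annotation and gene filter the entry is: not given in the sources used here. The authors deposited 1 table of FPKM values for 14114 genes, taken here as FPKM because the smallest value of a gene falls with its transcript length (Spearman rho -0.711 over 236 genes), and the gene with the lowest highest group mean has 1.22 FPKM.

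From these values log2(FPKM + 1) was fitted with limma 3.58.1 (R 4.3.3), 1 coefficient per group, a variance trend and no further filter or scaling, with 12 residual and 3.32 prior degrees of freedom. Controls were the mean of the thalidomide and DMSO coefficients, and Benjamini-Hochberg adjustment covered all genes of a comparison. The fit was tested on simulated data. Depth was estimated from the steps between low values and limits ARC in MDA-MB-468 controls. Annotation came from GENCODE 29 by gene identifier and promoters from RefSeq. The members and gene lists were chosen with earlier results of these data known. Named from each list were the 5 genes with the smallest adjusted p for the mean BETi-211 response, plus FOS, FOSB, JUN, NAB1, NAB2, EGR2, EGR3 and the ELK and MKL genes where measured, and, for likeness, the 2 genes with the highest r per member. A gene named by this rule is not reported here. Alternatives were the pseudocount (0.1 and 5), a filter at 5 FPKM, 4 scalings, each control alone, other variance models, a replicate block, each line fitted alone and each library left out.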

Additional observations from a re-analysis of the deposited data

Results flagged for a closer look

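Of 18 differences of the BETi-211 response between lines, 8 passed (limma, adjusted over all genes), all of them for ARC, IER3 or IER5. Of all genes 16.5% passed for MDA-MB-157 minus MDA-MB-231, 21.6% for MDA-MB-157 minus MDA-MB-468 and 21.9% for MDA-MB-468 minus MDA-MB-231. For ARC the response in MDA-MB-157 exceeded that in MDA-MB-231 by 0.658 and that in MDA-MB-468 by 0.979 in log2(FPKM + 1), and MDA-MB-468 minus MDA-MB-231 was -0.321. The comparisons with MDA-MB-468 involve control levels of at most 0.110 FPKM and turned round with a smaller pseudocount. For IER3 MDA-MB-157 minus MDA-MB-231 was -0.614, MDA-MB-157 minus MDA-MB-468 was 0.679 and MDA-MB-468 minus MDA-MB-231 was -1.29, with both BETi-211 libraries below the controls in MDA-MB-468 and MDA-MB-157 and above them in MDA-MB-231. For IER5 MDA-MB-157 minus MDA-MB-231 was -0.497 and MDA-MB-468 minus MDA-MB-231 was -0.547.

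IER2 stood on opposite sides of its controls in different lines under BETd-246, with a difference of -0.651 for MDA-MB-157, 0.794 for MDA-MB-231 and -0.608 for MDA-MB-468 and no overlap between treated and control libraries in any of them. This difference between lines was not tested, since the members were chosen on BETd-246 values. In the 18 sets of 4 control libraries, 1 for each gene and line, 0 had a library set apart from the rest by the criterion for single distant values.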

How the results depend on the processing

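The BETi-211 increases of EGR1 and ARC passed in each line under every alternative, those of IER5 under all but column-total scaling in MDA-MB-468, and SRF changed sign in MDA-MB-157 and MDA-MB-231 and gained a call in MDA-MB-468 and MDA-MB-157 under some scalings. With column-total scaling 3 of the 6 genes passed for BETi-211 in MDA-MB-468. For the difference of the BETi-211 response, 1 passed with a pseudocount of 0.1 for MDA-MB-157 minus MDA-MB-468, and with the replicate block 5 for MDA-MB-468 minus MDA-MB-231. Of the list of genes from RAS to SRF, with BETd-246 13 passed in MDA-MB-231 with upper-quartile and 15 with median-of-ratios scaling, and 17 in MDA-MB-468 with quantile normalization. Of the SRF cytoskeletal targets, 9 passed with BETd-246 in MDA-MB-157 and 9 in MDA-MB-231 with either quantile normalization or column-total scaling, 5 in MDA-MB-231 with that line fitted alone, and with BETi-211 5 in MDA-MB-231 fitted alone and 7 in MDA-MB-468 with column-total scaling. The 4 scalings put the median difference of all genes between -0.12 and 0.09, against -0.05 to -0.01 as reported. Some signs turned. With quantile normalization SRF with BETi-211 in MDA-MB-157 was 0.0158, IER5 with thalidomide in MDA-MB-157 was 0.00222 (0.00197 with upper-quartile scaling), EGR1 for MDA-MB-157 minus MDA-MB-231 was 0.172, DUSP1 with BETd-246 in MDA-MB-468 was 0.0744, GADD45B in MDA-MB-157 was 0.137, and ELK3 was 0.218 in MDA-MB-157 and 0.163 in MDA-MB-468. With upper-quartile scaling GADD45B was 0.0637 and ELK3 0.0497 in MDA-MB-157, and with column-total scaling SRF with BETi-211 in MDA-MB-231 was -0.0471. With median-of-ratios scaling, with BETd-246, SRF in MDA-MB-231 was 0.042, JUND in MDA-MB-468 0.0375, GADD45B 0.132 in MDA-MB-157 and 0.116 in MDA-MB-231, and ELK3 0.112 and 0.0826 in those lines and 0.0512 in MDA-MB-468, while IER2 for MDA-MB-157 minus MDA-MB-468 was -0.00529. With DMSO alone as control, JUND and GADD45B with BETd-246 in MDA-MB-157 were 0.0031 and 0.0343, EGR1 for MDA-MB-157 minus MDA-MB-231 was 0.0685 and IER2 for MDA-MB-157 minus MDA-MB-468 was -0.0683; with thalidomide alone, ARC between the controls of MDA-MB-157 and MDA-MB-231 was 0.0719 and ELK3 in MDA-MB-157 0.0392. With a pseudocount of 5, EGR1 for MDA-MB-157 minus MDA-MB-231 was 0.0301 and IER2 for MDA-MB-157 minus MDA-MB-468 -0.0299, and with 0.1 ARC was -0.0953 for MDA-MB-157 minus MDA-MB-468 and 0.933 for MDA-MB-468 minus MDA-MB-231.

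Leaving out 1 library at a time gave 0 to 1 of the 6 genes for thalidomide in MDA-MB-231, 3 to 10 genes from RAS to SRF in that line with BETd-246, and, of the cytoskeletal targets, 11 to 23 in MDA-MB-157 and 10 to 17 in MDA-MB-231 with BETd-246 and 4 to 10 and 5 to 13 with BETi-211. It turned the sign of SRF with BETi-211 in MDA-MB-231 (-0.0186 to 0.0795). Thalidomide values ranged from -0.0995 to 0.119 for IER2, -0.0501 to 0.0348 for IER5 and -0.0884 to 0.138 for SRF in MDA-MB-157, from -0.0156 to 0.211 for EGR1, -0.139 to 0.0188 for IER2, -0.242 to 0.104 for IER3, -0.0489 to 0.0877 for IER5 and -0.0137 to 0.0282 for SRF in MDA-MB-231, and from -0.0486 to 0.490 for EGR1 and -0.0259 to 0.0798 for ARC in MDA-MB-468. The difference of the BETi-211 response ranged from -0.190 to 0.0128 for EGR1 (MDA-MB-157 minus MDA-MB-231) and -0.0944 to 0.0998 for IER2 (MDA-MB-157 minus MDA-MB-468), and the BETd-246 values in MDA-MB-157 from -0.0627 to 0.0274 for GADD45B and -0.103 to 0.0535 for ELK3. Over the whole table, thalidomide in MDA-MB-157 gave 26 genes, 0 to 1026 when a library was left out, 7 and 163 with pseudocounts of 0.1 and 5, 209 with quantile normalization and 0 with the line fitted alone. The cause of these changes was not tested.

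Of other named genes, with quantile normalization CREB1 with BETi-211 was 0.0071 in MDA-MB-157 and 0.0244 in MDA-MB-231, and with BETd-246 NRAS was -0.0392 in MDA-MB-468 and -0.00208 in MDA-MB-231, MKL2 0.0161 in MDA-MB-157 and 0.134 in MDA-MB-468, FLNA -0.0506 and TGFB1I1 0.104 in MDA-MB-231 (0.106 with median-of-ratios scaling). With column totals JUN with BETd-246 was -0.0622 in MDA-MB-157, NRAS -0.0604 in MDA-MB-468 and -0.0486 in MDA-MB-231, and ELK1 -0.0563, -0.061 and -0.0853 in the lines in numerical order with BETd-246 and -0.0339 and -0.0288 in the first pair of them with BETi-211. With DMSO alone NRAS was -0.032 in MDA-MB-468 and -0.000839 in MDA-MB-231, and with thalidomide alone JUN was -0.0411 and ELK1 -0.0448 in MDA-MB-157 and ELK1 -0.0633 in MDA-MB-468 with BETd-246, and ELK1 -0.0591 in MDA-MB-157 with BETi-211. Leaving out a library gave -0.00737 to 0.0655 for JUN and -0.00782 to 0.0809 for ELK1 in MDA-MB-157, -0.0362 to 0.0488 in MDA-MB-468 and -0.0102 to 0.0826 in MDA-MB-231 for ELK1 with BETd-246, and -0.0231 to 0.0677 for ELK1 in MDA-MB-157 with BETi-211.

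Within each line, the difference between the replicates of a group was correlated over all genes with that of another group. The r of these differences was -0.207 to 0.335 over 18 pairs of groups. Since not every pair was positive, the replicate numbers were not taken as pairing. In MDA-MB-468, however, the r among BETd-246, thalidomide and DMSO were 0.175 to 0.335. The replicate block added IER2 (2 differences) and EGR1 (1) to the differences of the BETi-211 response and gave 5 genes for thalidomide in MDA-MB-157, and a crossed pairing, added after seeing the data, gave 5 as well.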
